A study of Mus musculus with 3 samples.

Results

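The complement components and receptors examined here were 9 genes fixed by name: C1qa, C1qb and C1qc, C3, Cfb, Cfp, C3ar1, C5ar1 and Vsig4. All 9 were found by symbol among the 32285 features of the count tables. They were read in live CD45+ cells, which is the general leukocyte marker, sorted from liver tumours of MYC-ON C57BL6 mice at 18 weeks, with 1 10x 3' v3 library from mice given DU101, 1 from mice given DU102 and 1 control library. MYC-ON is the label common to the 3 groups. What drives MYC, what DU101 and DU102 are, at which dose they were given, which vehicle the control received, and how many animals of which sex made up a library is not stated here by any source. With 1 library per group there was no test between groups. Values are unique molecular identifiers (UMIs, 1 per captured mRNA molecule) summed over the cells of a class and scaled to counts per 1000000 UMIs of that class (CPM), with exact 95% intervals that cover counting error only. They say nothing of the spread between mice.

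Complement is a cascade of plasma and tissue proteins that marks targets for uptake and releases small inflammatory peptides. C1q, built from the A, B and C chains, binds immune complexes and dying cells and starts the classical pathway, while C3 is the protein on which the pathways converge. Factor B (Cfb) supplies the catalytic subunit of the alternative pathway's C3 convertase, and properdin (Cfp) stabilises that convertase. C3ar1 and C5ar1 are the receptors of the anaphylatoxins C3a and C5a, and Vsig4, also called CRIg, is a receptor for C3 fragments on resident macrophages of the liver. Hepatocytes make most plasma C3 and factor B, whereas C1q and properdin come largely from myeloid cells.

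After removal of doublets and of cells above 10% mitochondrial UMIs, 13799 DU101, 11461 DU102 and 10154 control cells remained, with medians of 4832, 5091 and 6336 UMIs per cell. A cell was put in a class when it showed at least 3 of the class's 8 markers and more than of any other of 19 classes. This gave 31183 gated cells, 87.5% of DU101, 88.3% of DU102 and 88.5% of control cells. The libraries stood apart in sex-linked RNA: Xist, which is transcribed from the inactive X chromosome, was seen in 0.138% of DU101, 0.0698% of DU102 and 56.0% of control cells, and Y-linked RNA in 46.8, 52.5 and 21.0%. The control library therefore held cells with Xist that the treated libraries did not, and over all cells this difference and the treatment cannot be told apart. Values for the Xist-negative cells with Y-linked RNA (6455 DU101, 6011 DU102 and 1834 control cells) are given beside many of the results they change, though not all. Barcodes above 10% mitochondrial UMIs made up 9.09% of DU101, 14.0% of DU102 and 17.4% of control. Cell barcodes found in more than 1 library numbered 136, 97 of them among the kept cells.

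The 9 genes lie on 5 chromosomes of GRCm38, and all are transcribed from the minus strand. C1qb (chr4:136880129-136886187), C1qc (chr4:136889804-136893065) and C1qa (chr4:136895917-136898803) are neighbours within 18675 bases, with 3616 bases between C1qb and C1qc and 2851 between C1qc and C1qa. C3 (chr17:57203970-57228136) and Cfb (chr17:34856374-34862518) share chromosome 17, Cfp (chrX:20925454-20931555) and Vsig4 (chrX:96247203-96293438) are X-linked, C3ar1 lies at chr6:122847138-122856161 and C5ar1 at chr7:16246743-16259540. Promoter windows from RefSeq on GRCm38.p6 were found for 7 of the 9 genes. C1qa and Cfb had none, so no motif was sought for them. The 250 bases before the RefSeq start are given for C1qb and C1qc, since the C1q chains varied together, for Vsig4, since it was the most restricted of the 9, and for C3, whose classes differed from those of C1q. The RefSeq starts of C1qc, C3ar1 and C5ar1 lay inside the gene spans given above. Part of each of those windows is therefore within the annotated gene, and motif positions count from the RefSeq start. Capitals mark motif matches on either strand: GAGGAA (an ETS core of the PU.1 type), TGCTGA (a core of Maf recognition elements) and TTNNGCAA (a C/EBP site).
C1qb, minus strand of chr4:136886201-136886450: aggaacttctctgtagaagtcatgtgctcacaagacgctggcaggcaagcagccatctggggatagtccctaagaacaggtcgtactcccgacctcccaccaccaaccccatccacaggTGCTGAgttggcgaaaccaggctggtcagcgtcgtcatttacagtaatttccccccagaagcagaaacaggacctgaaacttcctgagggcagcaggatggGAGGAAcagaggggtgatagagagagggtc
C1qc, minus strand of chr4:136892915-136893164: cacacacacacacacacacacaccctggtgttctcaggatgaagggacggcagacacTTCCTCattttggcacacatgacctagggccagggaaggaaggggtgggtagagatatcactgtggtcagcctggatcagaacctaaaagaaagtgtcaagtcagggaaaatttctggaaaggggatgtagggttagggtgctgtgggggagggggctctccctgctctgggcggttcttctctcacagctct
Vsig4, minus strand of chrX:96293439-96293688: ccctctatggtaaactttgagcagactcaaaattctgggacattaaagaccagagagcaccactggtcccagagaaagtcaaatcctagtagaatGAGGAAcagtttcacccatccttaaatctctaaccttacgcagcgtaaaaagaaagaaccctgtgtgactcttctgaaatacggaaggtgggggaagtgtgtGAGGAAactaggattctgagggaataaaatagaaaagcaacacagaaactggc
C3, minus strand of chr17:57228137-57228386: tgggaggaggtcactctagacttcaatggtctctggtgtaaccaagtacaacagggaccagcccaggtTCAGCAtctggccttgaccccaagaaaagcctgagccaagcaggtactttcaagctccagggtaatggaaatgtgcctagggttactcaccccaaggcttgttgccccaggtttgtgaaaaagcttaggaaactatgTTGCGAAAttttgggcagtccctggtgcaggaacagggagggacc
GAGGAA was found in C1qb (bases -30 to -25 from the start), in C1qc on the opposite strand (-193 to -188) and at 2 places in Vsig4 (-155 to -150 and -53 to -48), and in none of the other 4 windows. TGCTGA was found in C1qb (-131 to -126), C3 (-182 to -177, opposite strand), C3ar1 and C5ar1, and TTNNGCAA only in C3 (-45 to -38, opposite strand). Of 32841 mouse promoter windows of this length, 23.3% held GAGGAA, 16.1% TGCTGA and 9.57% TTNNGCAA, so each match is common and is given as a description. An interferon response element (GAAA, any 2 bases, GAAA, in 2.98% of promoters) and an NF-kB site (GGGA, any base, TTTCC, in 0.356%) were in none of the 7 windows. The motifs did not overlap one another in these windows.

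**Figure D1:**
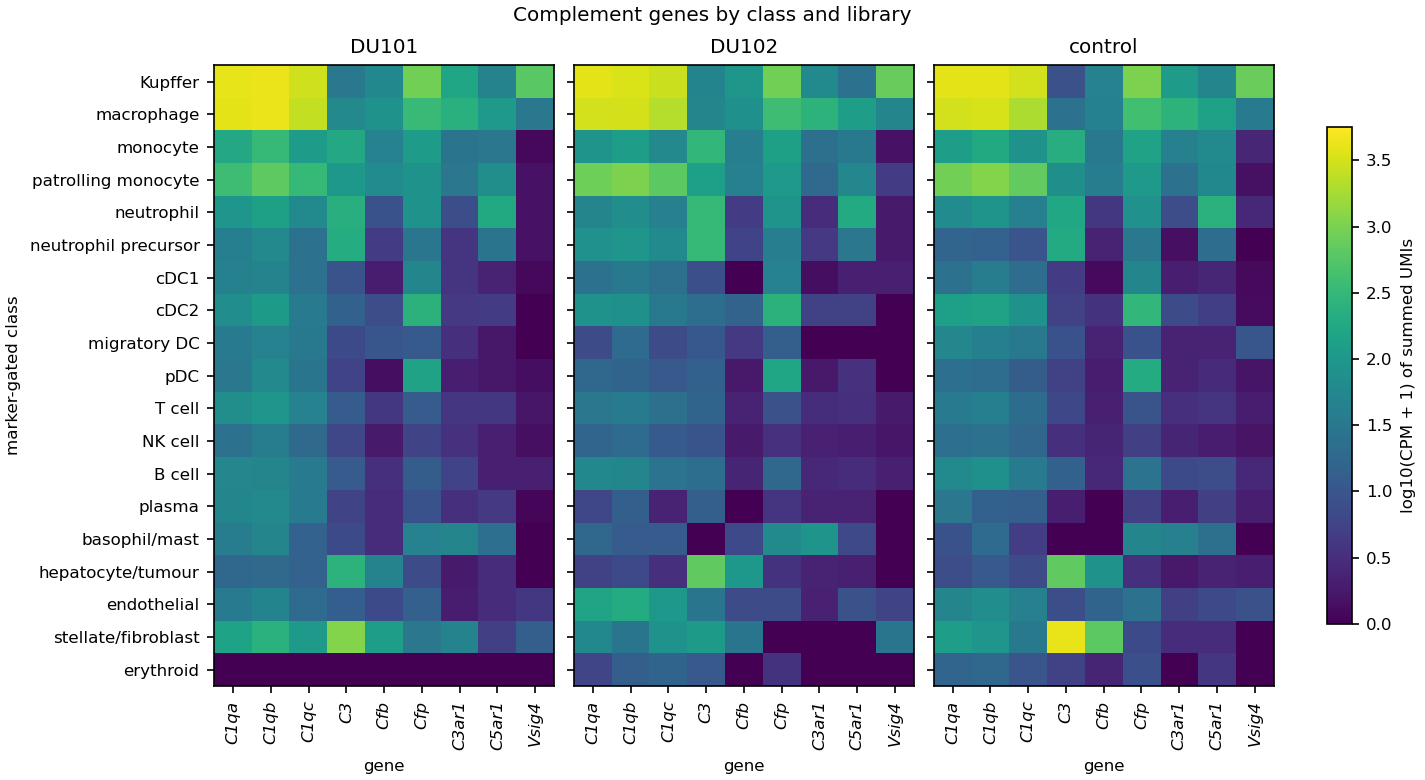
Levels of the 9 complement genes (columns) in 19 marker-gated classes (rows) in the DU101, DU102 and control libraries, coloured by log10(CPM + 1) of UMIs summed over the cells of a class, where the + 1 only serves the drawing. C1qa, C1qb and C1qc were highest in the Kupffer and macrophage rows and Vsig4 in the Kupffer row, while C3 and Cfb were highest in the stellate or fibroblast row (22 DU101, 5 DU102 and 31 control cells) in DU101 and control and in the hepatocyte or tumour row in DU102.

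The C1q chains were highest in the macrophage gates of all 3 libraries. C1qa stood at 4013 CPM in DU101, 3921 in DU102 and 3937 in control Kupffer-gated cells, and at 3947, 3133 and 3075 CPM in macrophage-gated cells. C1qb reached 4418, 3422 and 4000 CPM in the Kupffer gate and 4439, 3265 and 3312 CPM in the macrophage gate. C1qc reached 3015, 2804 and 3109 CPM in the Kupffer gate and 2507, 2116 and 1947 CPM in the macrophage gate. The Kupffer gate was above the macrophage gate beyond its counting interval in 3 libraries for C1qc, in 2 for C1qa and in 1 for C1qb, so the order of those neighbours was not the same for each chain. Both gates were above the patrolling monocyte gate in every library for each chain. The next class in every library was that of patrolling monocytes, the Ly6c-low monocytes that crawl along vessel walls. Below them the order differed between libraries: classical monocytes had 181 CPM of C1qa in DU101, 85.8 in DU102 and 121 in control, cDC2 (conventional type 2 dendritic cells) had 66.9, 81.1 and 131 CPM, and endothelial cells 35.3, 152 and 49.8 CPM.

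Kupffer-gated cells, the resident macrophages of liver sinusoids, were few and shallow. There were 84 in DU101, 42 in DU102 and 124 in control, with medians of 1168, 1292 and 1754 UMIs. Of their 10 leading genes 6 were their own markers, which follows from gating by those markers. In 67.9% of DU101, 57.1% of DU102 and 46.8% of control Kupffer-gated cells, the lead over the next class was 1 marker. At least 1 C1qa UMI was seen in 95.2% of DU101, 92.9% of DU102 and 96.0% of control Kupffer-gated cells. In macrophage-gated cells thinned to 2000 UMIs the share was 85.4% in DU101, 79.55% in DU102 and 80.0% in control (unthinned 90.7, 85.7 and 88.9%). T cells, which are not known to make C1q, were taken as the background: 13.9% of DU101, 10.2% of DU102 and 15.8% of control T-gated cells held a C1qa UMI at medians of 4048, 4792 and 5589 UMIs. Few T-gated cells had at least 8 C1q UMIs (54 DU101, 13 DU102 and 13 control). They held 57.05, 38.7 and 25.7% of the C1q UMIs of that class, so these were not spread evenly over its cells. The C1qa level of T-gated cells was 70.9 CPM in DU101, 29.4 in DU102 and 32.6 in control, and levels of that size in other lymphocytes are read as background.

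The share of each chain among C1q UMIs differed between gates and, in some gates, between libraries. In macrophage-gated cells C1qa made up 36.2% of C1q UMIs in DU101, 36.8% in DU102 and 36.9% in control, and C1qc 23.0, 24.9 and 23.4%. In Kupffer-gated cells C1qb held 38.6% in DU101, 33.7% in DU102 and 36.2% in control. In monocyte-gated cells C1qb held the larger part, at 51.8% in DU101, 46.9% in DU102 and 48.6% in control. In patrolling-gated cells C1qb held 48.2% in DU101, 40.4% in DU102 and 41.4% in control. These are shares of UMIs counted at the 3' end and not of protein. The counting interval of the DU101 share in the patrolling gate, 46.9 to 49.6%, lay above those of DU102 (39.5 to 41.4%) and control (40.6 to 42.1%).

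A gene and class pair was compared between libraries where the pair of libraries held at least 50 UMIs of the gene and the class reached 0.1 of the gene's highest class level, and it was called by size at 1.5-fold or more, which is not a test. Of 33 measured pairs of the 9 genes in DU101 over control, 2 were called higher and 9 lower. Over all genes, 5.22% of 116825 pairs were higher and 9.1% lower in DU101. In DU102 over control, 33 pairs were measured, with 4 higher and 4 lower, against 5.85% higher and 7.03% lower of 112482 pairs over all genes. The median log2 ratio of the members' pairs was -0.20 in DU101, against -0.06 over all pairs, and -0.07 in DU102, against 0.01 over all pairs. Both comparisons use the same control library. Of the 19 called pairs, 4 lie in the stellate or fibroblast gate, with 22 DU101, 5 DU102 and 31 control cells, where 28% of all measured genes were called lower in DU101 and 42.2% in DU102.

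**Figure D2:**
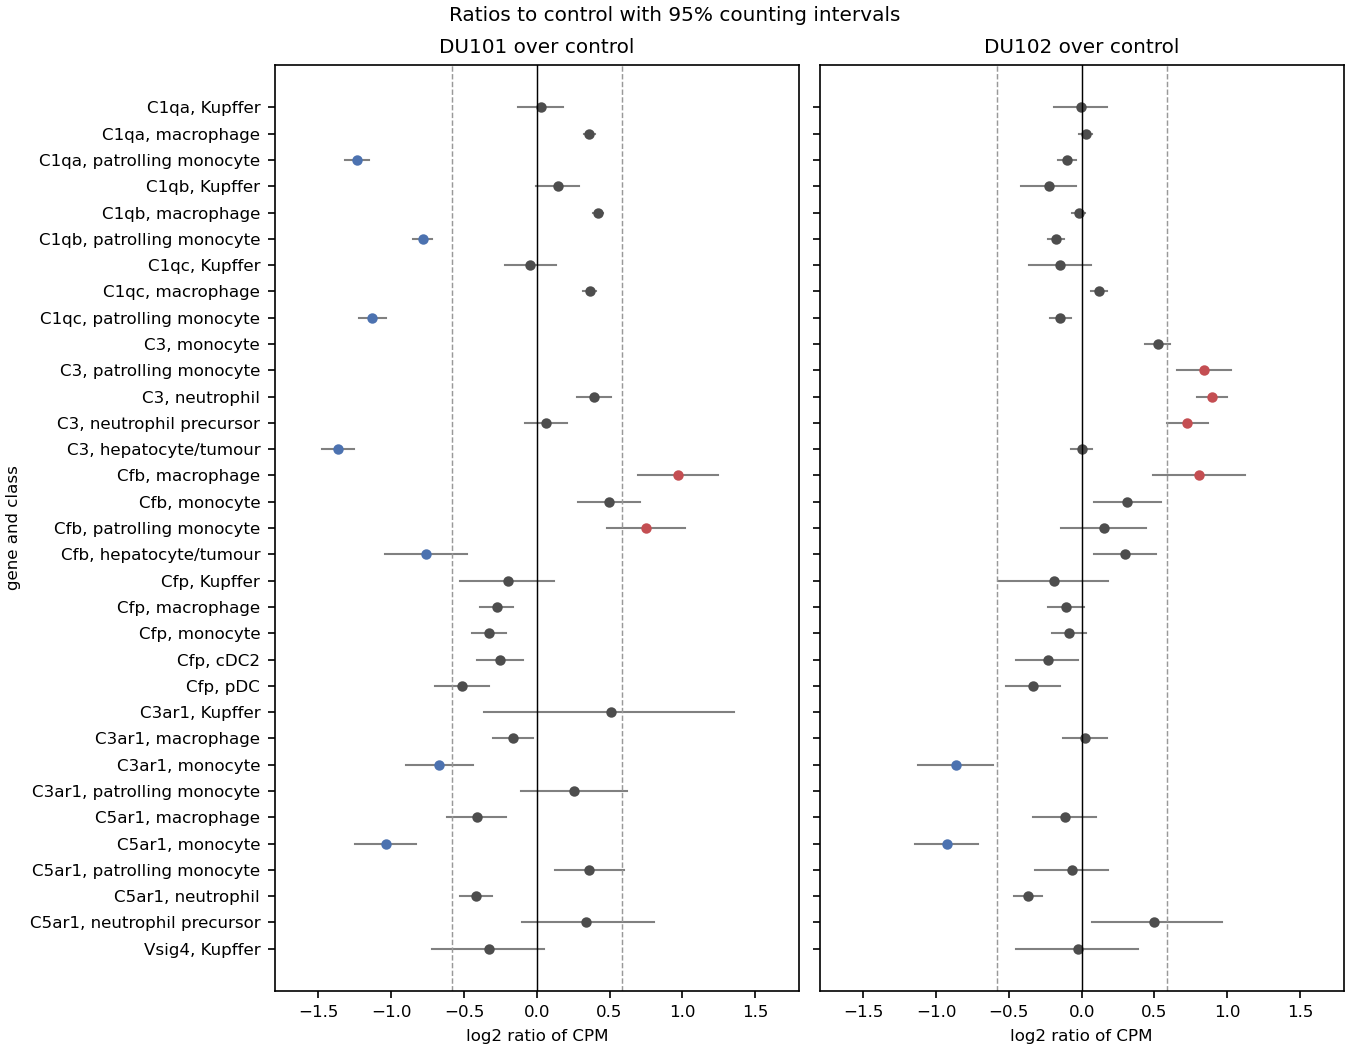
Log2 ratio of CPM to control (x axis) for each measured gene and class (rows), DU101 on the left and DU102 on the right, with 95% counting intervals as grey lines and dashed lines at 1.5-fold. Red points were called higher and blue points lower by size. The stellate or fibroblast gate is not drawn. The C1q chains in patrolling monocytes lie to the left of the dashed line only in the DU101 panel, where the C1qa ratio was 0.425, against 0.932 in DU102.

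In the macrophage and Kupffer gates no C1q chain was called in either comparison. In macrophage-gated cells the DU101 over control ratios were 1.28 (1.25 to 1.32) for C1qa, 1.34 (1.31 to 1.37) for C1qb and 1.29 (1.25 to 1.33) for C1qc, and the DU102 over control ratios were 1.02, 0.986 and 1.09. The clusters described below divided this gate unevenly. In its cells of a cluster led by Pf4 and Ms4a7 the DU101 ratios were 1.42, 1.44 and 1.39. In those of a cluster led by Cd5l and Fcna they were 0.872, 1.05 and 1.13. In Xist-negative cells with Y-linked RNA, the C1qa ratio in that gate was 1.02 in DU101 and 0.751 in DU102. The DU101 excess in the macrophage gate was thus smaller among those cells, which numbered 199 in DU101 and 115 in control.

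The C1q pairs called by size were all in the patrolling monocyte gate, in DU101. In classes under 0.1 of the highest level, where no call was made, ratios could be larger. C1qa in precursors of neutrophils was at 40.2 CPM in DU101, 77.1 in DU102 and 15.7 in control. There, few cells with at least 8 C1q UMIs (41 DU101, 67 DU102 and 1 control) held 66.05, 83.8 and 40.9% of the C1q UMIs. In the patrolling gate C1qa stood at 384 CPM in DU101, 842 in DU102 and 904 in control. C1qb stood at 664, 1011 and 1144 CPM there, and C1qc at 328, 648 and 717 CPM. DU101 was lower than control for all 3 chains, with ratios of 0.425 (0.401 to 0.451), 0.580 (0.554 to 0.608) and 0.457 (0.429 to 0.487), where 12.2% of all genes measured in that gate were called lower. DU102 was within the limit of size for each, at 0.932, 0.884 and 0.904. Among Xist-negative cells with Y-linked RNA, C1qa was 354 CPM in 366 DU101 cells, 955 CPM in 436 DU102 cells and 1512 CPM in 182 control cells, ratios of 0.234 and 0.632. The DU102 ratios there were 0.596 for C1qb and 0.579 for C1qc, so all 3 chains were past the limit of 1.5-fold in DU102 too.

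That signal came from a minority of the gate. Cells with at least 8 C1q UMIs made up 14.2% of DU101 (115 cells), 22.2% of DU102 (158 cells) and 30.2% of control patrolling-gated cells (258 cells), and held 92.7, 97.6 and 97.0% of the gate's C1q UMIs. Cells thinned to 2000 UMIs showed a C1qa UMI in 17.2% of DU101, 23.7% of DU102 and 31.7% of control (unthinned 23.5, 29.7 and 42.2%). The cells with at least 8 C1q UMIs also carried markers of the macrophage gate, summing to 1522 CPM in DU101, 838 in DU102 and 691 in control with 8 of 8 markers seen in each library, beside patrolling markers at 3020, 3674 and 2933 CPM. In the remaining cells the macrophage markers summed to 395, 442 and 514 CPM, again with 8 of 8 seen in each library, and the patrolling markers to 4779, 5123 and 4478 CPM. Both marker sets were thus seen in both groups of cells. The C1q-rich cells had more macrophage and less patrolling marker RNA in each library. The part that the macrophage markers have in the gate's C1q was not tested.

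The gate was then divided by clusters of all cells that had been formed without the 9 genes and without the other complement genes, a division chosen after the gate's values were seen. A cluster led by Lipg, Fcrl5, Fcgr4 and Cxcl13 held 18 DU101, 130 DU102 and 210 control cells of the gate, or 2.23, 18.2 and 24.6% of it. Its C1qa level was 2762 CPM in DU101, 2802 in DU102 and 2104 in control. A cluster led by Ace, Eno3 and Ear2, genes of Ly6c-low monocytes, held 75.9, 67.6 and 54.6% of the gate at 50.7, 34.0 and 87.4 CPM of C1qa, and one led by Pf4 and Ms4a7, with C1qa, C1qb and C3ar1 among its leading genes though they did not form it, held 15.5, 8.98 and 14.4% at 1123, 769 and 677 CPM. Within the Lipg cluster the C1qa ratio was 1.31 in DU101 and 1.33 in DU102, and within the Pf4 cluster 1.66 and 1.14, while within the Ace cluster it was 0.580 and 0.390. The ratio in the gate and those in 2 of its 3 clusters therefore lay on opposite sides of 1 in DU101. Over all kept cells the Lipg cluster held 38 DU101, 287 DU102 and 305 control cells, 0.275, 2.50 and 3.004% of each library. Lipg encodes endothelial lipase and Cxcl13 a chemokine that attracts B cells. Vsig4 was almost unseen in the Lipg cluster, with 0 UMIs in DU101, 2 in DU102 and 2 in control, whereas Cfp was at 65.8, 135 and 100 CPM.

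**Figure D3:**
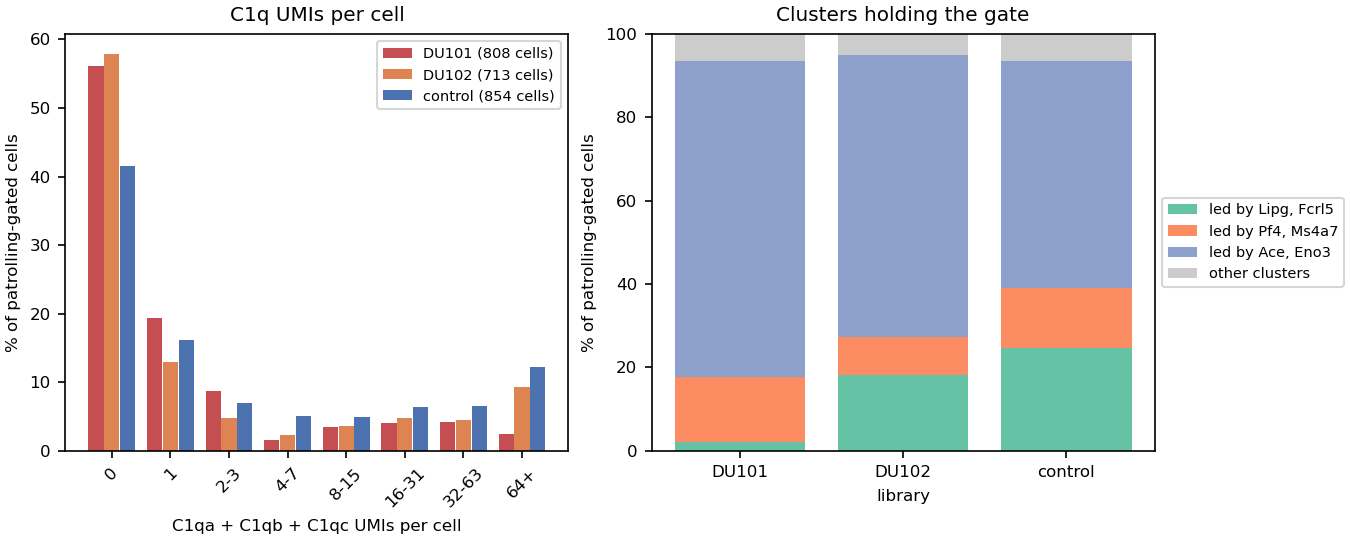
Left, percent of patrolling-gated cells (y axis) by the number of C1qa, C1qb and C1qc UMIs in a cell (x axis) in DU101, DU102 and control. Right, percent of the same cells in each cluster, named by its leading genes. DU101 has the smallest share of cells at 64 or more C1q UMIs, and the Lipg cluster makes up 2.23% of the DU101 bar, against 18.2% in DU102 and 24.6% in control.

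Of all C1q UMIs in kept cells, 69624 in DU101, 50715 in DU102 and 84379 in control, macrophage-gated cells held 44.2, 31.5 and 46.8%. Patrolling-gated cells held 7.36% in DU101, 20.4% in DU102 and 19.9% in control, and monocyte-gated cells 8.57, 4.20 and 4.46%. Cells that no gate took held 21.3, 25.6 and 18.3%. The few Kupffer-gated cells held 2.11, 1.68 and 3.53%, so most C1q RNA in these sorted cells lay outside that gate.

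C3 was higher in several other classes than in macrophages. In hepatocyte or tumour-gated cells, led by Alb, Ttr and Afp, C3 stood at 268 CPM in DU101, 690 in DU102 and 691 in control. Their Ptprc level, the gene of the sorted antigen CD45, was 12.3, 14.8 and 14.95 CPM, against 947, 1096 and 927 CPM in T-gated cells, which goes against the sort for CD45. DU101 was lower than control, with a ratio of 0.389 (0.360 to 0.419), in a gate where 14.4% of all measured genes were called lower, and the DU102 ratio was 1.00 (0.9497 to 1.05). The gate held 124 DU101, 179 DU102 and 110 control cells, and 8 secreted hepatocyte genes summed to 9850, 15973 and 10856 CPM. Among Xist-negative cells with Y-linked RNA the DU101 ratio was 0.230 and the DU102 ratio 0.618 (0.579 to 0.660). These came from 61 DU101, 109 DU102 and 19 control cells.

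Neutrophils and monocytes held C3 RNA too, and there DU102 was the highest of the 3 libraries. Neutrophil-gated cells had 228 CPM in DU101, 324 in DU102 and 174 in control, and their precursors, marked by Elane and Mpo, 206, 325 and 197 CPM. Monocyte-gated cells had 185, 306 and 213 CPM, and patrolling-gated cells 98.8, 130 and 72.8 CPM. C3 was called higher in DU102 over control in neutrophils at 1.86 (1.73 to 2.00), in precursors at 1.65 (1.5 to 1.82) and in patrolling monocytes at 1.79 (1.58 to 2.03), and not in monocytes at 1.44 (1.35 to 1.52). Macrophage-gated cells had 58.0 CPM of C3 in DU101 (164 UMIs), 51.7 in DU102 (97 UMIs) and 24.7 in control (117 UMIs), below the level set for a call, with ratios of 2.35 (1.84 to 3.004) and 2.09 (1.58 to 2.76), and of 2.39 and 1.86 within the Pf4 cluster. The shares of all measured genes called higher in DU102 were 5.79% in neutrophils, 11.8% in precursors and 4.21% in patrolling monocytes. In DU101 the ratio was 1.31 in neutrophils and 1.04 in precursors, neither called. Under TMM scaling the neutrophil log2 ratio of C3 was 0.58 in DU101 and 1.28 in DU102, against 0.39 and 0.89 without it. At least 1 C3 UMI was seen in 39.2% of DU101, 47.2% of DU102 and 27.4% of control neutrophil-gated cells, and, thinned to 2000 UMIs, in 30.9, 35.0 and 20.3%. In T-gated cells it was seen in 2.93, 6.03 and 2.77%, at 11.3, 15.3 and 5.58 CPM, so the background was itself highest in DU102.

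The neutrophil gate differed in make-up between the libraries. A cluster led by Retnlg and Ly6g held 51.3% of it in DU101, 47.2% in DU102 and 12.4% in control. Ltf and Ngp, markers of the precursor gate, were also among the leading genes of that cluster. A cluster led by Acod1 and Cxcl2 held 36.8, 42.4 and 81.9% of the neutrophil gate. C3 in the Retnlg cluster was at 254 CPM in DU101, 342 in DU102 and 258 in control, ratios of 0.988 and 1.33, and in the Acod1 cluster at 133, 154 and 109 CPM, ratios of 1.23 and 1.42. Both clusters thus showed a smaller DU102 ratio than the whole gate, below the limit of 1.5-fold. In precursors, with 761 DU101, 1059 DU102 and 78 control cells at medians of 12186, 5977 and 28032 UMIs, the 3 clusters compared gave DU102 ratios of 1.70, 1.52 and 1.53 against 33, 17 and 7 control cells, and in the patrolling gate the Ace cluster gave 1.27 and the Pf4 cluster 2.02. Among Xist-negative patrolling-gated cells with Y-linked RNA the DU102 ratio of C3 was 4.53 (3.32 to 6.29), from 353 UMIs in DU102 and 46 in control. The division by cluster was chosen after the gate's values were seen.

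In the stellate or fibroblast gate C3 reached 1114 CPM in DU101, 110 in DU102 and 4186 in control, from 22, 5 and 31 cells. A single control cell held 1775 of the 2102 control UMIs, and without it the control level was 1285 CPM. The DU101 call of lower C3 there rested on that cell, since the log2 ratio was -1.91 with it and -0.21 without it. Among Xist-negative cells with Y-linked RNA the DU101 ratio was 0.901, from 14 DU101 cells and 1 control cell.

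Cfb was the member called higher in macrophages in both treated libraries. Macrophage-gated cells had 84.6 CPM in DU101 (239 UMIs), 75.7 in DU102 (142 UMIs) and 43.3 in control (205 UMIs). The ratios were 1.95 (1.62 to 2.37) in DU101 and 1.75 (1.40 to 2.18) in DU102, where 3.61 and 4.22% of all measured genes were called higher. Thinned to 2000 UMIs, 14.3% of DU101, 14.5% of DU102 and 7.96% of control macrophage-gated cells held a Cfb UMI, against 0.361, 0.288 and 0.287% of T-gated cells. Within the Pf4 cluster, which held most of the gate, the ratios were 1.97 and 1.63, and among Xist-negative cells with Y-linked RNA 1.73 and 1.60. Cfb stayed above control in each of these subsets of the macrophage gate.

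In patrolling monocytes Cfb was at 63.1 CPM in DU101, 41.7 in DU102 and 37.6 in control, ratios of 1.68 (called higher, as were 4.33% of all genes measured there) and 1.11. In classical monocytes it was at 44.98, 39.7 and 31.9 CPM, ratios of 1.41 and 1.24, neither called. Among Xist-negative monocyte-gated cells with Y-linked RNA the ratios were 1.55 and 1.69, past the limit of 1.5-fold, from 154, 168 and 53 UMIs. The Pf4 cluster within the monocyte gate gave 1.74 and 1.81 and the Vcan cluster 0.985 and 0.891, so the 2 parts of that gate differed. In hepatocyte or tumour-gated cells Cfb was at 47.3 CPM in DU101, 98.2 in DU102 and 79.9 in control, lower in DU101 at 0.591 (0.485 to 0.719) and at 1.23 in DU102, which was 0.876 in the Xist-negative cells with Y-linked RNA (19 control cells). The stellate or fibroblast gate held 29 Cfb UMIs in DU101, 1 in DU102 and 315 in control. Cfb and C2 are neighbouring homologous genes, and how reads shared between such genes were counted is not stated by any source used here.

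Properdin (Cfp) was called in no class. It stood at 896 CPM in DU101, 903 in DU102 and 1029 in control Kupffer-gated cells, and at 338, 379 and 408 CPM in macrophages. It followed at 253, 256 and 301 CPM in cDC2, at 142, 161 and 202 CPM in plasmacytoid dendritic cells and at 113, 134 and 142 CPM in monocytes. This order of classes held in every library beyond the counting intervals. All 5 measured ratios were below 1 in each comparison, with log2 ratios of -0.51 to -0.20 in DU101 and -0.33 to -0.09 in DU102, and none was called. TMM scaling left all 10 below 0. Cfp is X-linked, and among Xist-negative cells with Y-linked RNA the direction was not the same in each class: the DU101 and DU102 ratios were 0.697 and 0.762 in macrophages, 0.882 and 1.02 in monocytes, 1.29 and 1.12 in cDC2 (22 control cells) and 1.03 and 1.28 in plasmacytoid dendritic cells (34 control cells).

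The anaphylatoxin receptors were divided between macrophages and neutrophils. C3ar1 was highest in macrophage-gated cells, at 235 CPM in DU101, 268 in DU102 and 264 in control, with a UMI in 57.2, 56.6 and 56.6% of cells. C5ar1 was highest in neutrophil-gated cells, at 187, 193 and 250 CPM, followed by macrophages at 104, 127 and 138 CPM. T-gated cells had 2.89, 2.13 and 2.34 CPM of C3ar1 and 2.99, 2.33 and 2.75 CPM of C5ar1. Neither receptor was called in the class where it was highest.

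Classical monocytes, the Ly6c-high cells that enter inflamed tissue, had less of both receptors in both treated libraries. C5ar1 was at 29.6 CPM in DU101 (284 UMIs), 31.9 in DU102 (251 UMIs) and 60.7 in control (584 UMIs), with ratios of 0.487 (0.421 to 0.562) and 0.526 (0.451 to 0.611). C3ar1 was at 26.7, 23.3 and 42.4 CPM, with ratios of 0.629 (0.535 to 0.737) and 0.549 (0.458 to 0.655). Of all genes measured in monocytes, 3.77% were called lower in DU101 and 2.39% in DU102. A C5ar1 UMI was seen in 6.27% of DU101, 6.53% of DU102 and 11.9% of control monocyte-gated cells thinned to 2000 UMIs (unthinned 14.7, 15.95 and 32.04%). Within the Vcan and Fn1 cluster of the gate the C5ar1 ratios were 0.488 and 0.532 and the C3ar1 ratios 0.491 and 0.641. Within the Pf4 cluster they were 0.633 and 0.685 for C5ar1 and 0.653 and 0.706 for C3ar1. In Xist-negative cells with Y-linked RNA, C5ar1 in monocytes had ratios of 0.447 and 0.632. All of these subsets of the monocyte gate were below control.

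In neutrophils C5ar1 was lower in the treated libraries over the gate but not within its clusters. The gate ratios were 0.750 (0.695 to 0.809) in DU101 and 0.774 (0.723 to 0.829) in DU102, neither called. In the Retnlg cluster C5ar1 was at 170 CPM in DU101, 176 in DU102 and 162 in control, ratios of 1.05 and 1.09, and in the Acod1 cluster at 391, 400 and 342 CPM, ratios of 1.14 and 1.17. The Acod1 cluster, with the higher C5ar1, made up 36.8% of the gate in DU101 and 42.4% in DU102, against 81.9% in control. Under TMM scaling the log2 ratio over the gate was -0.22 in DU101 and 0.02 in DU102, so its direction in DU102 also turned with the scaling. The median log2 ratio of all genes in that gate was -0.18 in DU101 and -0.32 in DU102. Patrolling monocytes had 70.9, 52.6 and 55.2 CPM of C5ar1, with no call over the gate. Among Xist-negative cells with Y-linked RNA the patrolling ratios were 3.13 in DU101 and 2.104 in DU102, from 159, 157 and 44 UMIs.

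**Figure D4:**
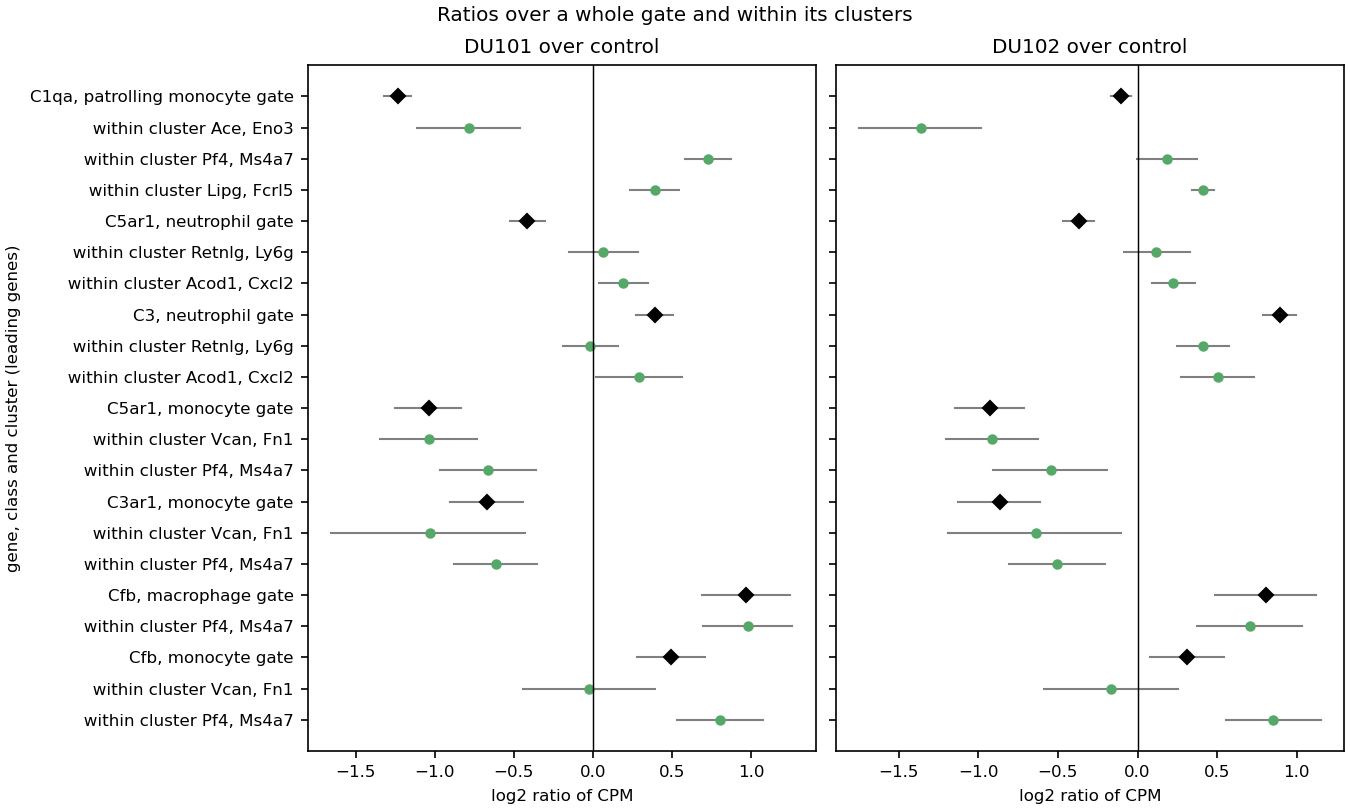
Log2 ratio of CPM to control (x axis) over a whole gate (black diamonds) and within its clusters (green circles), DU101 on the left and DU102 on the right, with 95% counting intervals. The C5ar1 diamond of the neutrophil gate lies left of 0 and its 2 circles right of 0, while the monocyte values of C5ar1 and C3ar1 lie left of 0 over the gate and in both clusters.

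Vsig4 was the most restricted member. Kupffer-gated cells had 615 CPM in DU101 (79 UMIs), 761 in DU102 (64 UMIs) and 773 in control (208 UMIs). Macrophage-gated cells had 30.8, 51.2 and 35.5 CPM, and T-gated cells 0.671, 0.864 and 0.970 CPM. A Vsig4 UMI was seen in 27.4% of DU101, 50% of DU102 and 47.6% of control Kupffer-gated cells, and in 4.75, 5.88 and 6.73% of macrophage-gated cells. The Kupffer ratios were 0.797 (0.607 to 1.04) in DU101 and 0.984 (0.732 to 1.31) in DU102, so a difference was not detectable at this depth. Macrophage-gated cells with a Vsig4 UMI (21 in DU101, 16 in DU102 and 40 in control) showed a mean of 2.14, 2.5 and 2.38 of the 8 Kupffer markers, against 1.05, 1.12 and 1.26 in those without one. Vsig4 was not among the Kupffer markers used. Within macrophage-gated cells of a cluster led by Cd5l, Fcna and Clec4f, Vsig4 was at 51.6 CPM in DU101, 185 in DU102 and 148 in control, and in the Pf4 cluster at 28.9, 39.1 and 16.9 CPM.

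**Figure D5:**
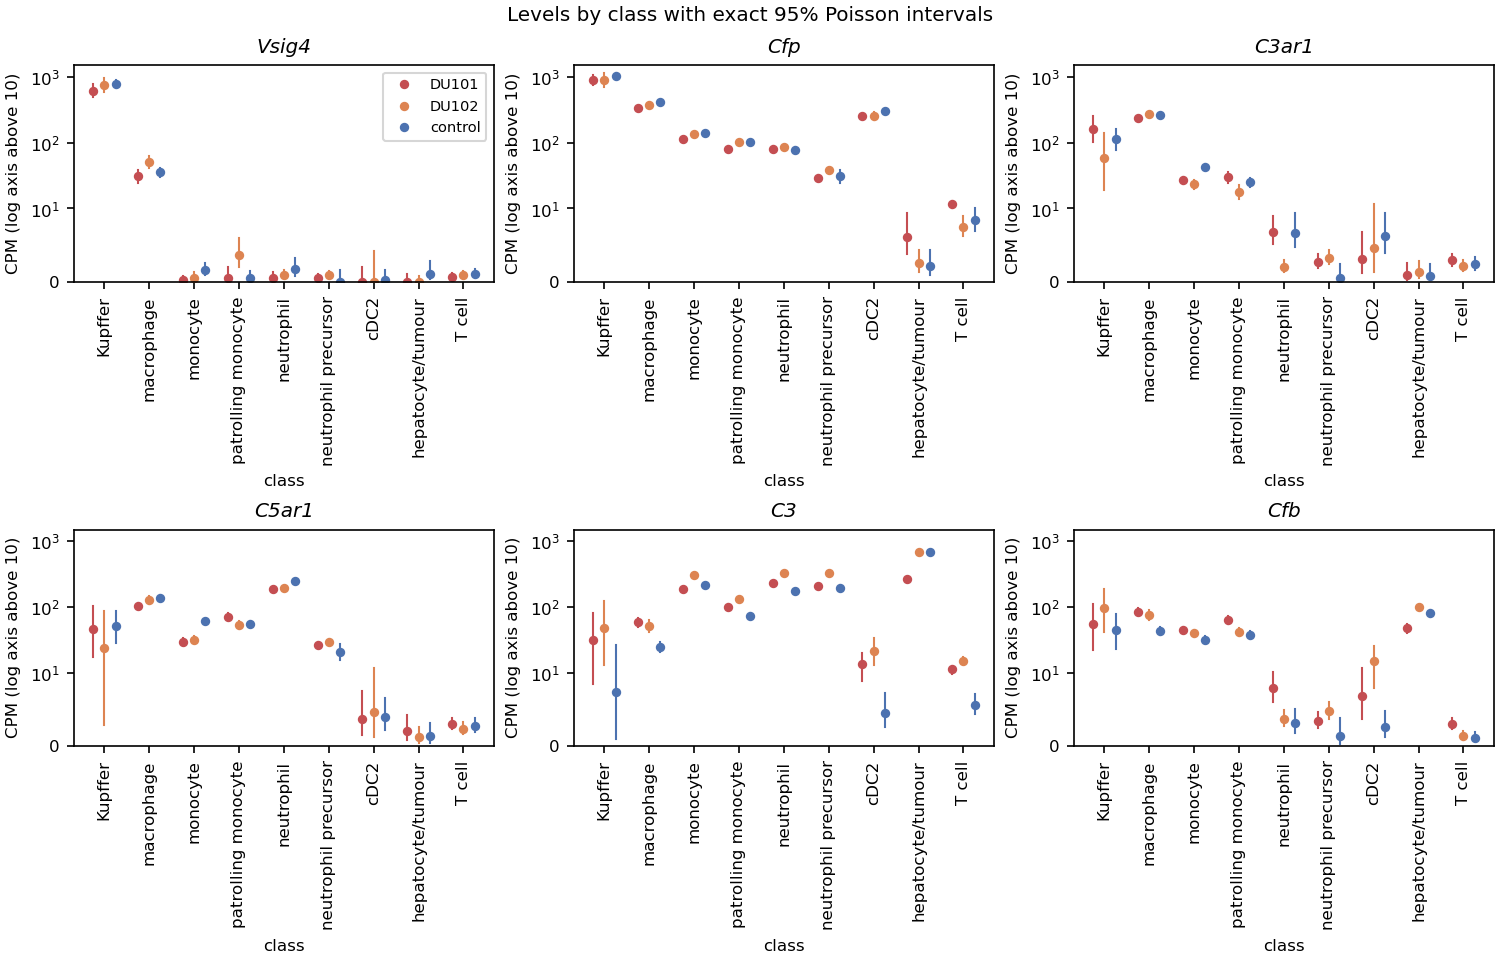
Levels of Vsig4, Cfp, C3ar1, C5ar1, C3 and Cfb in 9 classes (x axis) in DU101, DU102 and control, as CPM on an axis that is logarithmic above 10 and linear below, with exact 95% Poisson intervals. Vsig4 stands out in the Kupffer class and C3 in monocytes, neutrophils, their precursors and the hepatocyte or tumour class, while the T cell class shows the level of background.

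The other 43 complement genes, in 7 lists by role, gave 30 genes measured in at least 1 class. In DU101 over control, 10 of their 131 pairs were higher and 14 lower, with a median log2 ratio of -0.12, where 5.22% of the pairs of all genes were higher and 9.1% lower. In DU102 over control, 13 of 125 pairs were higher and 15 lower, with a median of 0.04, where 5.85% of the pairs of all genes were higher and 7.03% lower. By role, DU101 over control had 3 higher and 1 lower of 8 pairs in classical initiation, 3 and 0 of 7 in the lectin pathway, 0 and 2 of 3 in the terminal pathway, 1 and 3 of 11 among soluble regulators, 0 and 2 of 21 among membrane regulators and 3 and 6 of 81 among receptors. DU102 over control had 1 higher and 4 lower of 9, 3 and 1 of 7, 0 and 0 of 3, 2 and 1 of 10, 0 and 1 of 19 and 7 and 8 of 77 in the same order. Cfd, factor D of the alternative pathway, was measured in no class, with 19 UMIs in all, and C7 had 2.

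Among the genes with the largest ratios, Fcnb, the ficolin of the lectin pathway stored in neutrophil granules, was at 269 CPM in DU101, 190 in DU102 and 68.9 in control neutrophils, ratios of 3.90 and 2.76. It is also a leading gene of the precursor gate. Itgax, the alpha chain of complement receptor 4, was at 18.5, 23.5 and 70.1 CPM in the same gate, ratios of 0.264 and 0.336. Of all genes measured in that gate, 1411 of 7167 were called lower in DU101 and 2079 of 7438 in DU102, and 500 and 431 higher, and the make-up of the gate by cluster differed as given above for C3. In hepatocyte or tumour-gated cells, Cpn2 (a carboxypeptidase N subunit) and C8a (a terminal pathway component) were lower in DU101, with ratios of 0.426 and 0.504. Itgb2, the beta chain of complement receptors 3 and 4, was higher in DU102 endothelial cells at 3.63, from 39 UMIs in DU102 and 23 in control. Leukocyte RNA moved with it in that gate, where Ptprc was at 66.6 CPM in DU101, 177 in DU102 and 53.3 in control and C1qa at 35.3, 152 and 49.8 CPM, and its part in the Itgb2 ratio was not tested. Clu in T cells was at 13.5 CPM in DU101, 0.930 in DU102 and 0.404 in control, but 1 cell held 243 of the 261 DU101 UMIs. C4b in macrophage-gated cells was at 95.2 CPM in DU101 (269 UMIs) and 21.8 in control (103 UMIs). Its ratio was 4.38 (3.48 to 5.55), called higher as were 3.61% of all genes measured in that gate. It is given in addition, since the rule named each gene in 1 class per comparison. The remaining genes named by size (Cd55, C4b, Masp1, Lrp1, Serping1, C1ra, C2 and Clu) were in the stellate or fibroblast gate. That gate held 22 DU101, 5 DU102 and 31 control cells. Masp1 and Lrp1 were called higher there in both comparisons, and C4b and Serping1 in DU101. Cd55 and Clu were called lower in both, and C1ra and C2 in DU102. Of all genes measured in that gate, 28% were called lower in DU101 and 42.2% in DU102. Those called higher were 329 of 2275 in DU101 and 259 of 1669 in DU102.

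Other genes of the lists are given by level in a class where they were high. Fcna, the ficolin of macrophages, was at 694 CPM in DU101, 665 in DU102 and 665 in control Kupffer-gated cells, beside Vsig4 and Cfp. Cr2, complement receptor 2, was at 47.6, 110 and 69.2 CPM in B cells, and Itgam, the alpha chain of complement receptor 3, at 442, 512 and 437 CPM in neutrophils. Cd55, which speeds the decay of C3 convertases, was at 590, 772 and 531 CPM in endothelial cells. These 4 were chosen after their values were seen.

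The genes most alike in pattern were sought over 24 points (8 classes with at least 200 cells, in 3 libraries) among 4763 genes, by Spearman's rho as a description. The Kupffer gate was too small to enter. For C1qa they were Mertk (0.957), Itgb5 (0.954) and Fcgr1 (0.951), below C1qb (0.988) and C1qc (0.982). For C3 they were Mcemp1 (0.972), Mgst1 (0.967) and Gda (0.967), and for C5ar1 Tlr13 (0.944), Cxcl2 (0.938) and Tnfaip2 (0.935). For C3ar1 they were Cxcl16 (0.953), Mt1 (0.936) and Ccl9 (0.933), and for Cfb Lilra5 (0.931), Clec4n (0.924) and Lpl (0.923). For Cfp they were Asah1 (0.977), Psap (0.971) and Grn (0.956), genes of lysosomal proteins. For Vsig4, without the gate where it was highest, they reached only 0.753 (Mylip). Points from 1 library share its depth and its free RNA. Between members, rho with C1qa was 0.930 for C3ar1 and 0.930 for Cfb, 0.728 for C5ar1, 0.634 for C3, 0.531 for Cfp and 0.426 for Vsig4.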

How the data were processed

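The deposited matrices are raw UMI counts made by the authors, per feature and barcode, from 1 10x 3' v3 library per group, limited to called cells (at least 500 UMIs each). The file headers name Cell Ranger 6.0.0, while the submitters' processing notes name Cell Ranger 2.1.1 and mm10. Barcodes numbered 15686 in DU101, 13650 in DU102 and 12639 in control, with 106604935, 96817875 and 91013198 UMIs.

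Cells under 200 genes or over 10% mitochondrial UMIs were dropped, and doublets called per library with Scrublet (3.14, 2.06 and 2.53%) were removed. Cells were gated by markers as the text states, and 20.0% of DU101, 20.5% of DU102 and 16.1% of control gated cells lay at a gate's limit. UMIs were summed by gate and library and given as CPM with exact Poisson intervals. Ratios carry the exact interval of a pair of Poisson counts, and shares carry Clopper-Pearson intervals, all at 95%. A ratio against 0 was taken against a floor of 3 counts per library. Clusters came from joint Leiden clustering at resolution 1.0 without complement genes. The comparison was tested on simulated data. All 9 members are named. Of the other complement genes, at most 10 measured genes per comparison with the largest log2 ratio are named, with others as the text states. One gene that this rule takes is not reported here. The members, lists, gates and rules were chosen with earlier results of these data known. Annotated positions are those of GENCODE M21. The deposited tables of log2 fold changes by cluster were not used. Software was scanpy 1.11.5, anndata 0.12.19 and igraph 0.11.9 with scikit-learn 1.9.0, then pandas 2.3.3, scipy 1.17.1, numpy 2.4.6 and matplotlib 3.10.9 in Python 3.11.15, and edgeR 4.0.16 in R 4.3.3 for the TMM factors only. Alternatives were another mitochondrial limit, doublets kept, stricter gates, clusters in place of gates, cells weighted alike, TMM scaling, other UMI minimums and Xist-negative cells with Y-linked RNA.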

Additional observations from a re-analysis of the deposited data

Results flagged for a closer look

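In DU101 over control, Cfb lay on opposite sides of 1 in macrophage-gated and hepatocyte or tumour-gated cells: its log2 ratio was 0.97 in macrophages and -0.76 in hepatocyte or tumour cells. Cfb stood at 84.6 CPM in DU101 and 43.3 in control macrophages, and at 47.3 CPM in DU101 and 79.9 in control hepatocyte or tumour cells. The difference was not tested, since each group has 1 library.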

How the results depend on the processing

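No paired analysis was possible because each group has 1 library. Of the 19 called pairs of member and class, none reversed under the alternatives tried, and 19 kept their call with doublets kept, with at least 4 of 8 markers, with TMM scaling, with no minimum or at least 200 UMIs and, added after the data were seen, without barcodes found in more than 1 library. With a mitochondrial limit of 5% and of 20%, 17 and 18 did, with a margin of at least 2 markers 17, with cells weighted alike 16, and in Xist-negative cells with Y-linked RNA 17. With clusters in place of gates 12 did, 3 fell under the fold and 4 were not measured, and 7 of 27 member and library pairs had the same highest class, since no cluster took the name of macrophage or Kupffer. The count of pairs higher in DU101 was 4 in place of 2 with clusters and also with cells weighted alike, and 5 in Xist-negative cells with Y-linked RNA. In those cells DU102 had 7 higher and 10 lower in place of 4 and 4, and with no minimum of UMIs it had 7 higher. The cause was not tested. Without classes under 50 cells, an alternative added after the data were seen, DU102 had 2 lower pairs, since the stellate or fibroblast gate was left out. Without the control cell richest in C3, also added, 18 calls were kept. C1qa in macrophage-gated cells was seen in 90.72% of DU101, 85.66% of DU102 and 88.89% of control cells unthinned, against 85.39, 79.55 and 80.0% thinned. In the Kupffer gate, the UMI counts limit what can be seen.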
